A study of Mus musculus with 48 samples.

Results

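The mouse lines S25 and S46 carry the same transgene, exon 1 of huntingtin with 142 glutamines joined to a nuclear localization signal (NLS). Described here is how far the effect of that transgene on cerebellar RNA differed between the lines at about 3 months, as transgenic minus control in S25 less transgenic minus control in S46, for autosomal genes. The comparison used 14 of the 48 arrays of the study, with 1 mouse on each. Of 7453 probe sets tested, 6510 were autosomal with 1 gene symbol, and they stood for 5466 genes, with the brightest probe set kept for each. The study measured RNA of the cerebellum in 5 transgenic lines and their controls to ask what polyglutamine does to behaviour from within the nucleus and from outside it. Lines were profiled when deficits on the rotarod could first be detected, and S46 and A39, another of the lines, again at about 10 months.

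The S25 transgenic group held 3 males of 3 months. Its control group held 1 male of 3 months and 2 females of 2.5 months, all nontransgenic. The S46 transgenic group held 1 male and 3 females of 3.5 months, and the S46 control group likewise 1 male and 3 females of 3.5 months. Titles of the S46 transgenic arrays and of the 2 female S25 controls give 3 months instead. Ages of 3.5 and 2.5 months were used for them here. The series' design calls the controls littermates, but the 2 female S25 controls carried another animal code prefix than the other 4 S25 mice. Sex, age, code prefix and fluidics station therefore differ together within S25, and their part in the S25 effect cannot be told apart beyond the 1 male control of the same age and prefix. Each line is a single transgenic line. The promoter that drives the transgene and the transgene's level in each line are not given in the sources used here. All S25 arrays were scanned on 1 day and all S46 arrays of 3.5 months on another, so line and scan day cannot be told apart where transgenic mice, or control mice, of the 2 lines are set against each other directly.

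Huntingtin with an expanded glutamine run causes Huntington's disease, and its exon 1 fragment with an NLS is directed to the nucleus, where such fragments disturb transcription. Purkinje cells are the only output neurons of the cerebellar cortex, and they depend on a dense machinery for calcium storage, buffering and glutamate signalling. Microglia and astrocytes, including the Bergmann glia that surround Purkinje cells, respond to sick neurons by raising complement, lysosomal and filament genes.

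The mouse Htt probe set gave 1872, 2105 and 2051 units of scaled signal in S25 transgenic mice, against 2168, 1978 and 1970 in S25 controls. In S46 it gave 2006, 1889, 2584 and 1733 in transgenic mice, against 1748, 2249, 2257 and 2394 in controls. The groups overlapped in both lines, and whether this probe set detects the transgene is not given in the sources used here. A second probe set for Htt differed between the effects by log2 -0.48 (adjusted p = 0.284), against 0.06 (adjusted p = 0.933) for the first. Xist gave 1624 to 2509 in mice labelled female and 15 to 121 in mice labelled male on the 14 arrays of this comparison. Among the 14 arrays S46 transgenic array 3 had the lowest mean correlation with its own group (0.900), followed by S46 control array 4 (0.904), where the other 12 arrays had 0.930 to 0.949.

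At this age many probe sets differed between transgenic and control mice in S25, while no probe set passed in S46. The difference between the effects was itself tested. Called means an adjusted p below 0.05 in limma. In S25, 272 of 7453 probe sets were called (3.65%), 109 higher and 163 lower in transgenic mice. In S46, 0 were called (0.00%), although 835 had an unadjusted p under 0.05 and chance alone would give 373. The difference of the effects was called for 151 probe sets (2.03%), of which 44 were higher in S25 and 107 lower. Counted by autosomal gene, 112 of 5466 were called (2.05%), 32 higher (0.585%) and 80 lower (1.46%). The median difference over all 5466 genes was log2 0.021.

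The 80 lower genes were nearly all falls in S25. In S25 itself 73 of them were called, and in 79 every S25 transgenic array lay below every S25 control array, against 8.29% of all genes tested. The same arrays chose the 80 and the 32 genes. Counts and medians of these genes in those arrays therefore describe them and are no separate support. For 62 of the 80 the S46 effect was under 0.25 on the log2 scale in either direction. The median of the 80 was log2 -1.05 in S25 and 0.11 in S46. The 32 higher genes were more mixed. In S25, 21 of them were called, 28 had the opposite sign in S46, and for 6 the S46 effect was the larger of the 2 in size. Their median was log2 0.75 in S25 and -0.25 in S46. With the 2 female S25 controls left out, so that 3 transgenic males were set against 1 male, 46 of the 80 lower and 12 of the 32 higher genes were still called, and all 112 kept their sign. With every array left out in turn, 48 of the 80 and 15 of the 32 passed each time. With only the 14 arrays in the fit, 34 of the 80 lower and 3 of the 32 higher genes were still called. Among genes named here for the difference, Trp53i13, Kcnj4, Vcam1, Tyrobp, Kcnk2, Pomc, Nr4a2, Nr4a1, Nefm, Cbln1, Car2, Bdnf and Ier2 did not pass with the 1 male control, besides those where the value is given.

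**Figure D1:**
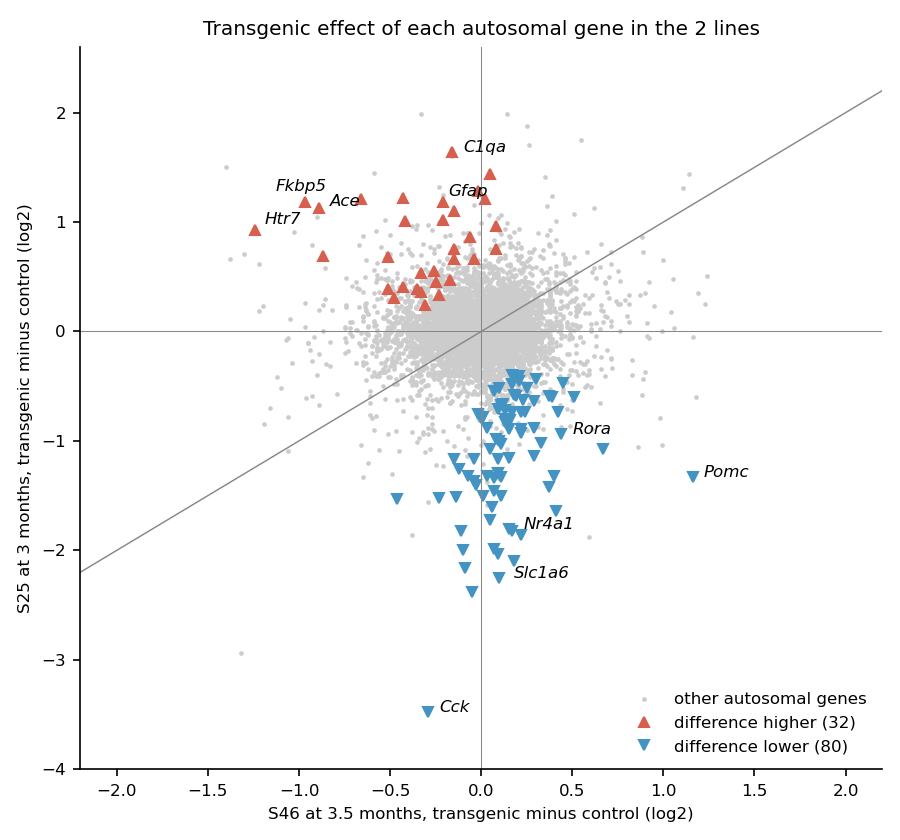
Transgenic minus control (log2) of each of 5466 autosomal genes in S25 at 3 months (vertical axis) against S46 at 3.5 months (horizontal axis), with the 32 genes whose difference was called higher and the 80 called lower marked; the diagonal is equal effect. The lower genes run down the vertical axis near an S46 effect of 0, with Cck lowest at log2 -3.48 in S25, whereas higher genes such as Htr7, Fkbp5 and Ace lie to the left, where S46 transgenic mice were below their controls.

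Markers of Purkinje cells were the group with the most called members. Of 14 measured, 11 were lower in the difference of effects, 0 were higher and 3 did not pass, with a median of log2 -1.81. Over all genes 1.46% were lower in the difference and 0.585% higher. In S25, 12 of 14 were lower in transgenic mice, against 2.27% of all genes (median -1.84), and in S46 0 of 14 passed in either direction (median 0.06). RNA was taken from whole tissue, so fewer Purkinje cells and less RNA per Purkinje cell cannot be told apart.

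Calb1, the calcium buffer calbindin, gave 2110, 1504 and 2126 in S25 transgenic mice, against 6906, 6794 and 6506 in S25 controls. S46 signals were 7492, 7266, 7986 and 8197 in transgenic mice, against 5847, 7403, 7327 and 6961 in controls. The S25 transgenic arrays lay far below all 11 others, while the S46 groups overlapped and differed by log2 0.17 (adjusted p = 0.484). In S25 Calb1 was at 28.3% of control, and the difference of effects was log2 -2.0 (SE 0.14, adjusted p = 3.38e-13).

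Rgs8, which shortens G protein signals and is plentiful in these cells, gave 1466, 1328 and 1424 in S25 transgenic mice, against 5408, 6079 and 5467 in S25 controls. Its S46 signals were 5734, 5170, 6341 and 6060 in transgenic mice, against 5457, 5685, 5932 and 5147 in controls. Here too the S25 transgenic arrays stood alone at 25.1% of the S25 control signal, with a difference of effects of log2 -2.06 (SE 0.16, adjusted p = 1.87e-12).

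Slc1a6, the glutamate transporter of Purkinje cell spines, had the lowest difference of the list. Its signals were 783, 463 and 726 in S25 transgenic mice, against 2869, 3086 and 3466 in S25 controls. In S46 they were 3545, 2940, 2584 and 3528 in transgenic mice, against 3189, 3040, 3159 and 2339 in controls, with the S46 groups intermixed. The difference was log2 -2.36 (SE 0.22, adjusted p = 7.87e-10).

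Genes for calcium release and its shut-off fell alongside. Car8, a carbonic anhydrase-related protein that binds the inositol trisphosphate receptor, had 1113 to 1267 in S25 transgenic mice, against 4500 to 8681 in S25 controls (difference log2 -2.34, SE 0.32). Inpp5a, which removes a phosphate from inositol trisphosphate, was at 27.6% of control in S25 (difference -2.07, SE 0.18). Its second probe set gave a difference of log2 -1.42 (adjusted p = 4.53e-05). Atp2a3, a calcium pump of the endoplasmic reticulum, was at 24.9% in S25 (difference -1.91, SE 0.21). Ppp1r17, a phosphatase inhibitor activated by cyclic GMP signalling, was at 23.4% in S25 (difference -2.28, SE 0.22, and log2 -1.08 by its second probe set).

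Scaffold, receptor and transcription genes of the list differed by less. Homer3, a scaffold of metabotropic glutamate receptors, differed by log2 -1.71 (SE 0.18, adjusted p = 1.02e-08). Pcp2, a modulator of G proteins, differed by -1.61 (SE 0.29, adjusted p = 5.04e-04), and did not pass with 1 S25 control (log2 -1.24, adjusted p = 0.0943). Pvalb, the calcium buffer parvalbumin, which molecular layer interneurons share, differed by -0.92 (SE 0.18, adjusted p = 0.00126).

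Rora, the nuclear receptor that Purkinje cells need to mature, moved apart in opposite directions. Its signals were 783, 592 and 624 in S25 transgenic mice, against 1101, 1468 and 1313 in S25 controls. In S46 they were 1703, 1233, 1358 and 1369 in transgenic mice, against 1112, 1042, 1064 and 906 in controls. No array crossed over in either line: the transgenic arrays were all the lower in S25 and all the higher in S46, where the effect of log2 0.44 did not pass (adjusted p = 0.249). The difference was log2 -1.38 (SE 0.22, adjusted p = 4.83e-05).

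The 3 markers that did not pass were Cacna1g, a T-type calcium channel (log2 -1.48, adjusted p = 0.0508), Gad2, which makes GABA (-0.01, adjusted p = 0.997), and Stmn4, a stathmin (0.27, adjusted p = 0.628). Gad2 and Stmn4 did not pass in S25 either, whereas Cacna1g did, with log2 -1.86 (adjusted p = 8.87e-05). The mean of the 14 markers per array, each marker centred on log2, ran from -1.33 to -0.99 in S25 transgenic mice, against 0.34 to 0.46 in S25 controls. In S46 it ran from 0.25 to 0.52 in transgenic mice, against 0.20 to 0.41 in controls, so the S25 transgenic arrays stood apart from all others.

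**Figure D2:**
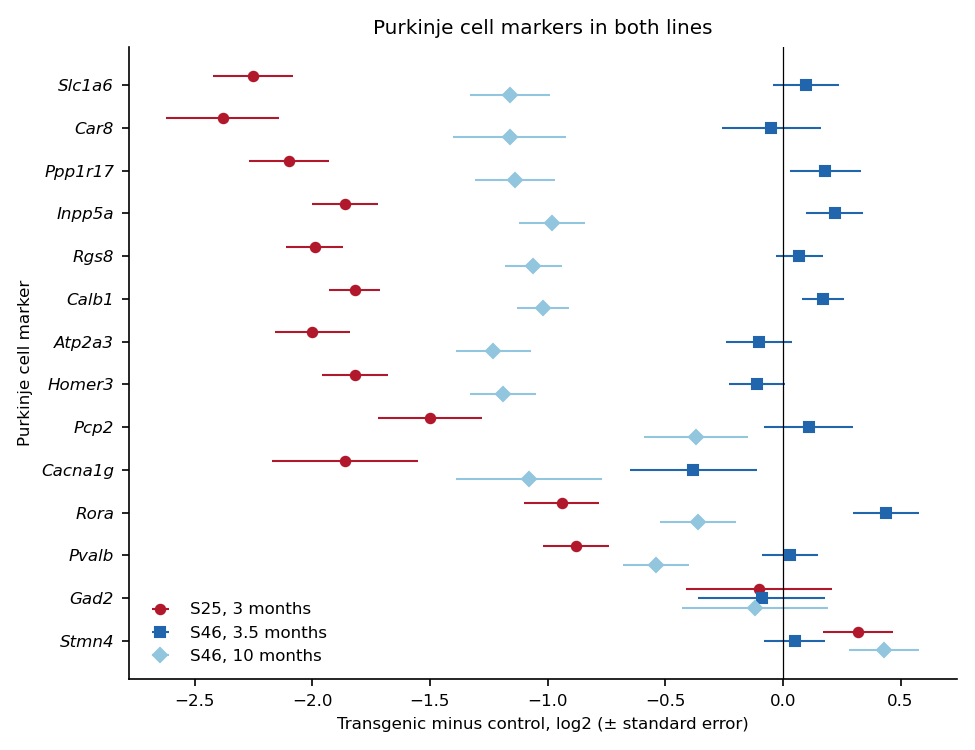
Transgenic minus control (log2, bars are standard errors from limma) of the 14 Purkinje cell markers in S25 at 3 months (n = 3 and 3), S46 at 3.5 months (n = 4 and 4) and S46 at 10 months (n = 3 and 3). At the younger age S46 sits near 0 for most markers, and its values of 10 months lie between those and S25 for every marker but Gad2 and Stmn4.

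**Figure D3:**
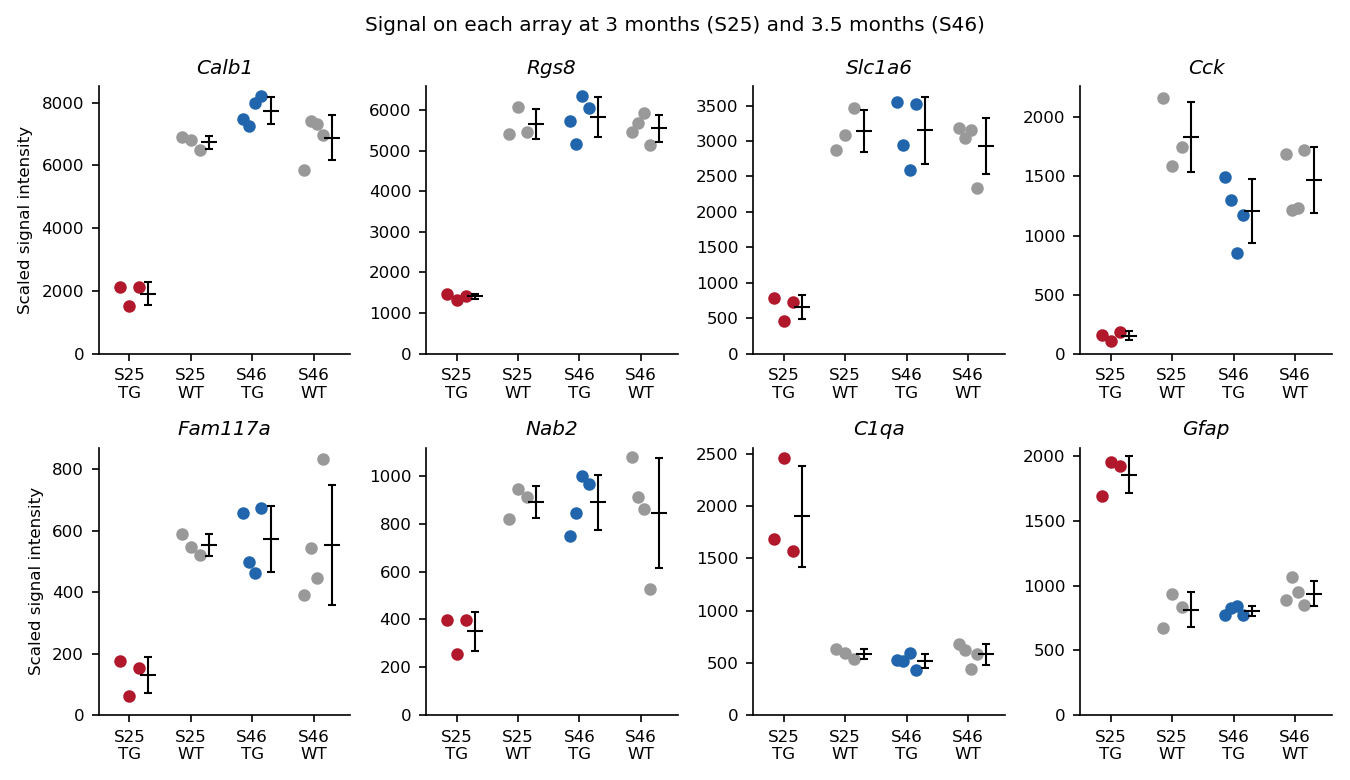
Scaled signal intensity of 8 genes on each of the 14 arrays, with S25 transgenic (red), S25 control (grey), S46 transgenic (blue) and S46 control (grey) mice from left to right, and mean ± SD as black bars. In each panel the 3 S25 transgenic arrays lie outside the range of the other 11, below it for Calb1, Rgs8, Slc1a6, Cck, Fam117a and Nab2 and above it for C1qa and Gfap. Of all 5466 genes, the S25 transgenic arrays lay below all others in 93 (1.70%) and above all others in 138 (2.52%).

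The starts of the called Purkinje genes were searched for AGGTCA, the core site of many nuclear receptors, and for GGGCGG, the GC box, on both strands with overlapping matches counted. Of the 11 genes lower in the difference, 8 had starts in the RefSeq promoter table (GRCm38.p6, 250 bases before to 50 after a start). AGGTCA stood at 5 of their 15 starts, in the 3 genes Pcp2, Homer3 and Rgs8, against 16.3% of all 32851 starts. Of those 5 starts 3 belong to Pcp2, so they are not independent. By gene the site stood in 3 of 8, against 4900 of 27025 genes. GGGCGG stood at 4 of the 15 starts, against 35.7% of all. By gene it stood in 4 of 8, against 10324 of 27025. These are matches of letters only. Shown are a start of Pcp2 (chr8:3625498-3625797, minus strand) and that of Homer3 (chr8:70282749-70283048, plus strand), for that site in capitals (TGACCT where it lies on the other strand). The start of Slc1a6 (chr10:78780246-78780545, plus strand) is given as one without AGGTCA, with its 6 GC boxes in capitals (CCGCCC on the other strand).
Pcp2: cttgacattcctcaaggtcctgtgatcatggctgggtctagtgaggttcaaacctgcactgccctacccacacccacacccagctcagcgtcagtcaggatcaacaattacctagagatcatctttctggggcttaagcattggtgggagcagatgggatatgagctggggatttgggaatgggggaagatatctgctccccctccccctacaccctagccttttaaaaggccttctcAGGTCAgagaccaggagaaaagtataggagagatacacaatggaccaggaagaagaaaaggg
Homer3: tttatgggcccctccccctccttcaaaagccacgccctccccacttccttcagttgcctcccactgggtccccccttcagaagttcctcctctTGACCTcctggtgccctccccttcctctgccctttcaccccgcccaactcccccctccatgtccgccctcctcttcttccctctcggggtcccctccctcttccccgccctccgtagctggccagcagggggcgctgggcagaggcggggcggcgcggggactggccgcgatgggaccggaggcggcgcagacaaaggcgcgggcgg
Slc1a6: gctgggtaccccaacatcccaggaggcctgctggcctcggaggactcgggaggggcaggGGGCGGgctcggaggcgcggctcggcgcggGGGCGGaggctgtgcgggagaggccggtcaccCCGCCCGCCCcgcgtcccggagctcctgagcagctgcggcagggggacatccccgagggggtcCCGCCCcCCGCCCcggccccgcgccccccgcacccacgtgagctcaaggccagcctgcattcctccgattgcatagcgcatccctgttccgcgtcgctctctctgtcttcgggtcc

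Cck, the neuropeptide cholecystokinin, had the lowest difference of all called genes. It gave 160, 107 and 182 in S25 transgenic mice, against 2164, 1586 and 1751 in S25 controls. Its S46 signals were 1496, 1303, 854 and 1174 in transgenic mice, against 1694, 1218, 1234 and 1721 in controls. S25 transgenic mice held 8.99% of the control signal, while the S46 groups overlapped at 82.0%, and the difference was log2 -3.19 (SE 0.34, adjusted p = 1.53e-08). Of the 8 interneuron and GABA synthesis genes measured, Cck and Pvalb were called lower and 6 did not pass (median -0.37). The share of all genes called lower was 1.46%. Gad1, which makes most GABA, was called in S25 (log2 -0.61, adjusted p = 0.0237) and not in the difference (-0.39, adjusted p = 0.463).

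Of 17 calcium signalling genes measured, 4 were lower, 0 higher and 13 did not pass (median log2 -0.50), and of the 4, Inpp5a and Atp2a3 are also Purkinje markers. The share of all genes called lower was 1.46%. Atp2a2, the widespread calcium pump of the endoplasmic reticulum, gave 1240, 980 and 1402 in S25 transgenic mice, against 3105, 3207 and 3043 in S25 controls. In S46 it gave 2640, 2914, 2847 and 3177 in transgenic mice, against 2506, 3305, 2773 and 3424 in controls. The S25 transgenic arrays lay below all 11 others, with a difference of log2 -1.33 (SE 0.21, adjusted p = 7.15e-05). Hpcal1, a neuronal calcium sensor, differed by -1.13 (SE 0.19, adjusted p = 2.08e-04). Ryr1, a calcium release channel, was called in S25 (log2 -0.73, adjusted p = 0.0141) and not in the difference (-0.74, adjusted p = 0.117).

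Few ion channel and receptor genes were called. Of 14 potassium and sodium channel genes, 1 was lower, 1 higher and 12 did not pass (median log2 -0.28). Over all genes 1.46% were lower and 0.585% higher. Kcnma1, the large-conductance calcium-activated potassium channel, gave 679, 877 and 871 in S25 transgenic mice, against 1361, 1336 and 1288 in S25 controls (difference -0.80, SE 0.15, adjusted p = 5.79e-04). Kcnk2, a background potassium channel opened by stretch and lipids, went the other way, with 779, 627 and 868 in S25 transgenic mice, against 273, 360 and 314 in S25 controls. Its S46 signals were 441, 299, 303 and 320 in transgenic mice, against 265, 298, 264 and 577 in controls. In S46 a single high control (577) lay above all transgenic arrays and the other controls lay below them all, with an effect of log2 0.02 (adjusted p = 0.983). The difference was log2 1.19 (SE 0.29, adjusted p = 0.0142), called with 12 of the 14 arrays left out in turn. Gabbr1, a subunit of the GABA B receptor, was lower (-0.78, SE 0.18, adjusted p = 0.00960), the 1 called gene of 14 glutamate and GABA receptor genes.

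Immediate early genes, which neurons switch on with activity, gave 4 lower members of 15 measured, 0 higher and 11 not passed (median log2 -0.51). The share of all genes called lower was 1.46%. Nr4a2, an orphan nuclear receptor, gave 71.5, 60.7 and 124 in S25 transgenic mice, against 340, 235 and 320 in S25 controls. S46 signals were 513, 297, 265 and 236 in transgenic mice, against 310, 216, 286 and 145 in controls. The difference was log2 -2.05 (SE 0.42, adjusted p = 0.00232), and by its second probe set -1.05 (adjusted p = 0.251). Nr4a1, its close relative, gave 247, 299 and 148 in S25 transgenic mice, against 902, 732 and 866 in S25 controls (difference -1.96, SE 0.45, adjusted p = 0.00866, passed with 13 of the 14 arrays left out in turn).

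For both, the S25 transgenic arrays lay below every S25 control array. Nab2, a corepressor of the Egr factors, was at 39.9% of control in S25 (difference -1.44, SE 0.26, adjusted p = 5.12e-04), and Ier2 at 56.2% (-0.96, SE 0.25, adjusted p = 0.0321, passed with 8 of the 14 arrays left out in turn). Fos varied too much to pass, with 632, 274 and 151 in S25 transgenic mice, against 1848, 649 and 1279 in S25 controls, and 757 to 2665 against 555 to 1854 in S46 (difference log2 -2.47, SE 0.89, adjusted p = 0.172). Egr1 (-0.51, adjusted p = 0.464), Junb (0.00) and Jun (0.69, adjusted p = 0.343) did not pass either. With 1 S25 control in place of 3, Nab2 was the 1 member still called, and the mean of the list differed by log2 -0.37 instead of -0.64.

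Among 11 measured genes that drop in the striatum of Huntington's disease, 1 was called lower and 10 did not pass (median log2 -0.38). The share of all genes called lower was 1.46%. The called member was Bdnf, a neurotrophin that striatal neurons receive from cortex. It gave 720, 800 and 651 in S25 transgenic mice, against 1151, 1198 and 1251 in S25 controls. Its S46 signals were 1432, 1436, 1004 and 1702 in transgenic mice, against 1189, 1215, 1137 and 1463 in controls, where the groups overlapped. The difference was log2 -0.85 (SE 0.21, adjusted p = 0.0155). Penk, the precursor of enkephalin, was called in S25 (-0.60, adjusted p = 0.0471) and not in the difference (-0.41, adjusted p = 0.482). Drd2, a dopamine receptor (-0.01, adjusted p = 0.993), and Ptpn5, a striatal phosphatase (0.68, adjusted p = 0.145), did not pass.

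Several of the most lowered genes belonged to none of the lists. Fam117a gave 175, 63.4 and 152 in S25 transgenic mice, against 590, 547 and 522 in S25 controls. In S46 it gave 656, 499, 462 and 675 in transgenic mice, against 391, 542, 447 and 832 in controls. The S46 values spread widely around the S25 control level, and the difference was log2 -2.12 (SE 0.31, adjusted p = 1.05e-05). Dap, a death-associated protein that restrains autophagy, gave 167, 124 and 225 in S25 transgenic mice, against 802, 746 and 907 in S25 controls (difference -2.07, SE 0.29, adjusted p = 7.80e-06).

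Creg1, a secreted glycoprotein of the endosomal and lysosomal path, was tight within S25, with 178, 169 and 173 in transgenic mice, against 506, 482 and 498 in controls (difference log2 -1.79, SE 0.20, adjusted p = 6.43e-08). Nefm, the medium neurofilament chain, differed by -1.77 (SE 0.43, adjusted p = 0.0155, passed with 11 of the 14 arrays left out in turn). Pomc, the precursor of melanocortins and beta-endorphin, owed its difference to both lines, with 98.6, 75.1 and 201 in S25 transgenic mice, against 408, 300 and 263 in S25 controls, and 268, 358, 377 and 497 in S46 transgenic mice, against 83.7, 182, 283 and 125 in S46 controls. Neither effect alone passed (S25 log2 -1.33, adjusted p = 0.156, S46 1.16, adjusted p = 0.323), and the difference of -2.49 (adjusted p = 0.0376) passed with 4 of the 14 arrays left out in turn.

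Of 13 measured genes of endoplasmic reticulum stress, Hspa5, the chaperone BiP, was called lower and 12 did not pass (median log2 -0.51). The share of all genes called lower was 1.46%. Hspa5 gave 2291, 1384 and 2437 in S25 transgenic mice, against 5095, 3640 and 3922 in S25 controls. S46 signals were 2979, 2455, 1881 and 3211 in transgenic mice, against 2319, 2547, 2725 and 2413 in controls. The S25 controls stood above all the other 11 arrays, by log2 0.74 over the S46 controls (adjusted p = 0.117), and with the 1 male S25 control the difference was -0.92 (adjusted p = 0.266) in place of -1.12 (adjusted p = 0.0155). Idi1, an enzyme of isoprenoid synthesis, was the 1 called gene of 11 in cholesterol synthesis (-0.92, SE 0.20, adjusted p = 0.00399), and did not pass with 1 S25 control (-0.61, adjusted p = 0.299).

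Of 10 markers of microglia and macrophages measured, 4 were higher in the difference, against 0.585% of all genes. Another 6 did not pass and 0 were lower (median log2 0.96). In S25, 6 of 10 were higher, against 1.54% of all genes (median 1.02), and in S46 0 passed (median -0.04). C1qa, a chain of the complement starter C1q, gave 1683, 2461 and 1573 in S25 transgenic mice, against 628, 597 and 536 in S25 controls. Its S46 signals were 523, 521, 595 and 432 in transgenic mice, against 676, 627, 443 and 586 in controls. The S25 transgenic signal was 3.12 times that of controls, above all 11 other arrays, and the difference was log2 1.80 (SE 0.25, adjusted p = 4.37e-06).

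Ctss, a lysosomal protease of microglia, gave 2006, 1635 and 1615 in S25 transgenic mice, against 742, 684 and 696 in S25 controls (difference log2 1.30, SE 0.25, adjusted p = 0.00112). Cd68, a lysosomal membrane protein of phagocytes, differed by 1.25 (SE 0.26, adjusted p = 0.00248). Tyrobp, the signalling adaptor of microglial surface receptors, differed by 1.40 (SE 0.38, adjusted p = 0.0366) and passed with 6 of the 14 arrays left out in turn. In all 4, S25 transgenic array 2 or array 1 was highest and no transgenic array of S25 fell among its controls. C1qb (log2 1.20, adjusted p = 0.0713) and C1qc (0.72, adjusted p = 0.268) were called in S25 and not in the difference. A second C1qb probe set gave 0.19 in S25 (adjusted p = 0.828). Cx3cr1 (0.35, adjusted p = 0.618) and Csf1r (0.54, adjusted p = 0.238), receptors of resting microglia, did not pass in either. The mean of the list ran from 0.54 to 1.07 in S25 transgenic mice, against -0.26 to -0.13 in S25 controls, and from -0.33 to -0.23 in S46 transgenic mice, against -0.35 to -0.11 in S46 controls.

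Of 14 Bergmann glia and astrocyte markers, 2 were higher, against 0.585% of all genes, and 12 did not pass (median log2 0.36). In S25, 3 were called higher, against 1.54% of all genes, and 1 lower, against 2.27%. The lower one was Septin4 (S25 log2 -0.63, adjusted p = 0.0251, difference -0.77, adjusted p = 0.0593). A second Septin4 probe set had the other sign and did not pass (S25 0.43, adjusted p = 0.660). Gfap, the filament protein of reactive astrocytes, gave 1695, 1958 and 1925 in S25 transgenic mice, against 672, 938 and 837 in S25 controls. In S46 it gave 775, 831, 844 and 773 in transgenic mice, against 890, 1068, 952 and 849 in controls. The directions were opposite without overlap, although the S46 effect of log2 -0.21 did not pass (adjusted p = 0.599), and the difference was 1.39 (SE 0.22, adjusted p = 4.81e-05). A second Gfap probe set gave 1.5 and did not pass (adjusted p = 0.239). Mt2, a metal-binding metallothionein, gave 17755, 16585 and 17872 in S25 transgenic mice, against 8712, 10450 and 7906 in S25 controls (difference 0.88, SE 0.20, adjusted p = 0.0103). With 1 S25 control Mt2 did not pass (0.65, adjusted p = 0.295). Aldoc (-0.67, adjusted p = 0.176), which Purkinje cells also express in stripes, Gja1 (0.39, adjusted p = 0.369) and Aqp4 (0.34, adjusted p = 0.509) did not pass.

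Vcam1, an adhesion molecule of vessels and activated glia, was also higher (log2 1.42, SE 0.38, adjusted p = 0.0322), but its second probe set gave 0.21 (adjusted p = 0.899), and it passed with 8 of the 14 arrays left out in turn. Slc39a6, a zinc transporter, gave 560, 430 and 447 in S25 transgenic mice, against 252, 211 and 214 in S25 controls, and 160 to 303 against 241 to 313 in S46 (difference 1.23, SE 0.25, adjusted p = 0.00179). Cdo1, which oxidises cysteine, differed by 1.19 (SE 0.25, adjusted p = 0.00250), with log2 0.68 in S25 and -0.51 in S46. For Cdo1, S25 minus S46 gave -0.65 between controls (adjusted p = 0.117) and 0.54 between transgenic mice (adjusted p = 0.0771).

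The largest positive differences joined a higher S25 value to a lower S46 one. Htr7, a serotonin receptor, gave 341, 240 and 333 in S25 transgenic mice, against 177, 120 and 157 in S25 controls. S46 signals were 50.1, 290, 85.4 and 202 in transgenic mice, against 292, 215, 296 and 645 in controls. Neither effect passed alone (S25 log2 0.93, adjusted p = 0.198, S46 -1.24, adjusted p = 0.214), and their difference was 2.17 (SE 0.50, adjusted p = 0.0103), which did not pass with only the 14 arrays in the fit (adjusted p = 0.249). S25 minus S46 controls gave log2 -1.06, which did not pass (adjusted p = 0.214).

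Fkbp5, a cochaperone of the glucocorticoid receptor, gave 259, 361 and 226 in S25 transgenic mice, against 84.2, 164 and 99.9 in S25 controls. Its S46 signals were 65.7, 74.8, 60.4 and 149 in transgenic mice, against 135, 173, 220 and 199 in controls. Its difference of log2 2.14 (SE 0.40, adjusted p = 6.11e-04) combined 1.18 in S25 with -0.97 in S46, and did not pass with 1 S25 control (1.66, adjusted p = 0.106). Ace, the angiotensin-converting enzyme, gave 187, 239 and 181 in S25 transgenic mice, against 107, 78 and 64.5 in S25 controls. In S46 it gave 87, 49.1, 253 and 126 in transgenic mice, against 183, 197, 220 and 303 in controls, which overlapped (difference 2.03, SE 0.44, adjusted p = 0.00458, or 0.117 with only the 14 arrays in the fit). The S25 transgenic arrays of Ace lay within the S46 range. S25 minus S46 gave log2 -1.26 between controls (adjusted p = 0.0859) and 0.76 between transgenic mice (adjusted p = 0.188).

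The choroid plexus, which carries Ace and can come along in a cerebellar dissection, was checked beside it. Its 5 measured markers had a median difference of log2 1.55 with 0 called, and their mean ran from -0.57 to 1.05 in S25 transgenic mice, against -1.01 to -0.08 in S25 controls, and from -1.38 to 0.88 in S46 transgenic mice, against -0.47 to 0.93 in S46 controls. Its part in the Ace result was not tested. Kcnj4, an inward rectifier potassium channel (difference 1.56, adjusted p = 0.0316), and Trp53i13 (1.86, adjusted p = 0.0282) also joined a rise in S25 of log2 0.69 and 1.21 to a lower S46 value of -0.87 and -0.66, with none of the 4 effects past the threshold. They passed with 7 and 9 of the 14 arrays left out in turn.

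Set directly against each other, S25 transgenic and S46 transgenic mice differed in 277 probe sets (3.72%), 126 higher and 151 lower in S25, whereas S25 and S46 control mice differed in 5 (0.0671%). Of those 5, 3 were also called in the difference of effects. The 1 among the 112 genes was 2510002D24Rik, of unknown role here, which gave 360, 323 and 339 in S25 transgenic mice, against 101, 99.3 and 243 in S25 controls. S46 signals were 375, 268, 518 and 361 in transgenic mice, against 355, 624, 592 and 491 in controls. The S25 transgenic arrays lay within the S46 range, S25 minus S46 controls gave log2 -1.76 (adjusted p = 1.14e-06), and the difference of effects was 1.64 (SE 0.29, adjusted p = 2.54e-04). Also called in both were a dimmer probe set of Pelo (controls -0.79, difference 1.36, adjusted p = 2.80e-05) and 1 without a gene symbol (controls -1.11, difference 1.26, adjusted p = 0.0323). Acy1 (-1.21) and Suz12 (1.03) were called between controls alone, and these genes were named after their values were seen. The 80 lower genes had a median of log2 -0.91 between transgenic mice of the 2 lines and 0.18 between controls. The 32 higher genes had 0.74 between transgenic mice and -0.28 between controls. These medians come from the arrays that chose the genes, so they are no separate support.

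**Figure D4:**
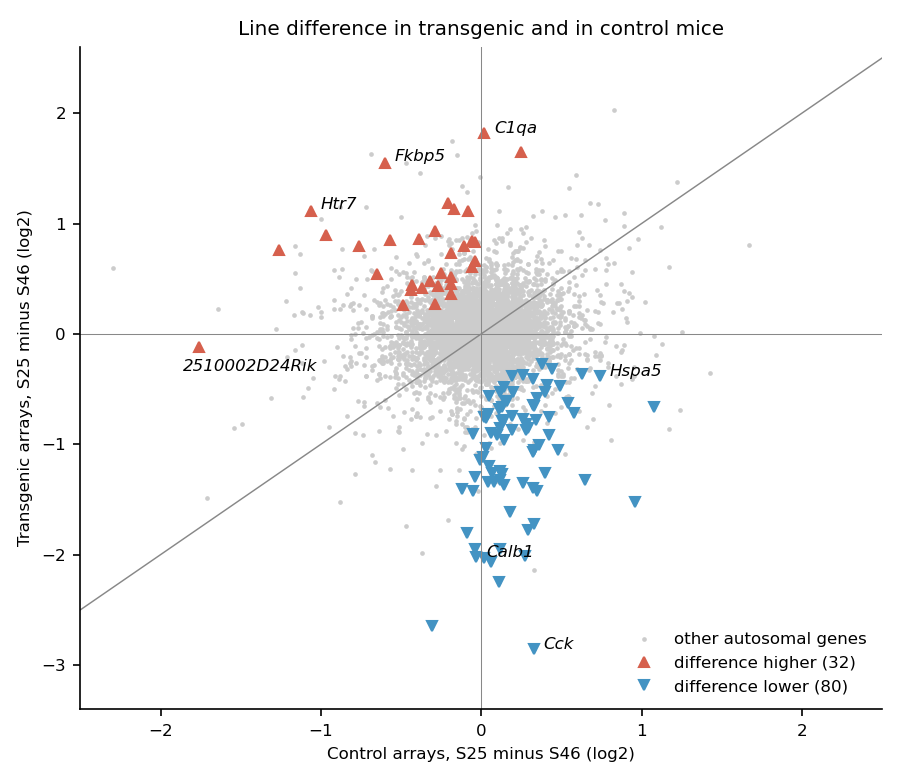
S25 minus S46 (log2) in transgenic mice (vertical axis) against the same in control mice (horizontal axis) for each of 5466 autosomal genes, with the 32 and 80 genes of the difference of effects marked; on the diagonal the line difference is the same in both genotypes. Lower genes such as Calb1 and Cck lie low near a control difference of 0, whereas 2510002D24Rik lies far left at log2 -1.76 in controls and -0.12 in transgenic mice.

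Several gene lists had no called member in the difference, where 2.05% of all genes were called. Among 43 respiratory chain subunits (median log2 -0.01), 29 proteasome subunits (-0.06), 15 ribosomal proteins (0.05), 15 genes of synaptic vesicles (-0.15), 26 histones and chromatin regulators (0.07) and 15 basal, Sp1 or CREB transcription factors (0.04), 0 passed. At that share lists of this size can hold 0, so this is not a result about these systems. In S25, Snap25 of the vesicle list (log2 -0.64, adjusted p = 0.0164) and H1f2 of the chromatin list (0.97, adjusted p = 0.0229) were called. Granule cell markers gave 1 lower member of 11, Cbln1, the synaptic organiser that granule cells release onto Purkinje cells (log2 -0.61, SE 0.16, adjusted p = 0.0339, called with 6 of the 14 arrays left out in turn), and a median of -0.33. Oligodendrocyte and myelin genes gave 1 lower member of 8, the carbonic anhydrase Car2 (-0.62, SE 0.16, adjusted p = 0.0288, called with 7), with a median of 0.05, and Mbp, the main myelin protein, stood at -0.05 (adjusted p = 0.937). Markers of vessels, meninges and fibroblasts (9 measured, median 0.10), of blood (2, median -0.05) and of neighbouring brainstem and midbrain (4, median 0.05) had 0 called. Interferon and MHC class I genes had 0 of 10 called (median 0.52). Their member B2m, the invariant chain shared by class I molecules, was called in S25 (log2 1.41, adjusted p = 0.00149) and not in the difference (1.06, adjusted p = 0.173).

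**Figure D5:**
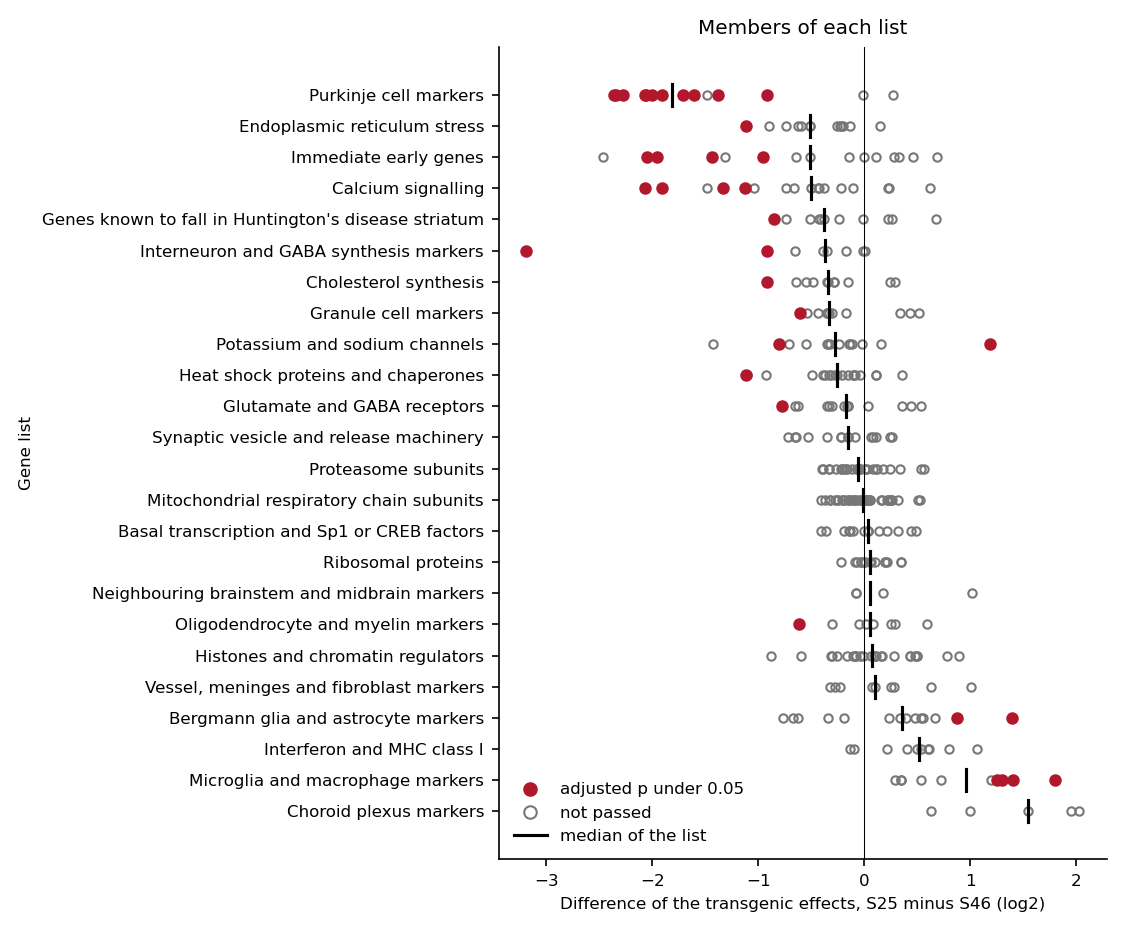
Difference of the transgenic effects, S25 minus S46 (log2), of each measured member of the 24 gene lists with 4 or more measured members, filled where called and open where not, with list medians as black ticks. Purkinje cell markers lie lowest with a median of -1.81, microglial markers are the only list with 4 higher members, and choroid plexus markers lie highest at 1.55 with 0 called.

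The S46 line was also profiled at 10 months, with 3 transgenic and 3 control females that share no array with the younger groups. All 3 transgenic mice had one code prefix and all 3 controls another, so prefix and genotype cannot be told apart, and control 1 was scanned on another day and chip lot than the other 5 arrays. At that age 74 probe sets were called (0.993%), 17 higher and 57 lower, and 49 autosomal genes (0.896%). With scan day or chip lot as a block 58 probe sets were called, and with array weights 370, and the overlap below was not recomputed with them. Of the 208 autosomal genes called in S25 at 3 months (3.81%), 41 were called in S46 at 10 months, all in the same direction, which is 19.7% of the S25 genes and 83.7% of the S46 genes. Of the 80 genes lower in the difference at about 3 months, 78 were below control in S46 at 10 months by sign, against 48.1% of all genes, and 29 were called lower, against 0.714% of all genes. Of the 32 higher genes, 25 were above control by sign, against 51.9% of all genes, and 2 were called higher, against 0.183% of all genes.

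At 10 months 9 of the 14 Purkinje markers were called lower in S46, with a median of log2 -1.04, against -1.84 in S25 at 3 months. Calb1 stood at -1.02 (adjusted p = 5.06e-08), Homer3 at -1.19 (adjusted p = 1.86e-07) and Cck at -1.86 (adjusted p = 8.88e-06). Some S25 changes did not pass there: Fam117a stood at -0.17 (adjusted p = 0.986), Dap at -0.56 (adjusted p = 0.425) and Bdnf at -0.13 (adjusted p = 0.969). The median of the 80 lower genes in S46 at 10 months was log2 -0.51, close to the value of Dap. Of the glial genes, C1qa stood at 0.38 (adjusted p = 0.667), Gfap at 0.18 (adjusted p = 0.924) and Ctss at 0.45 (adjusted p = 0.50), and 0 of 10 microglial markers passed (median 0.22). Whether S46 at 10 months differed from S25 at 3 months in these genes was not tested.

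Of the 84 autosomal genes called higher in S25, 21 were also called higher in the difference. Given here are 3 of those without a called difference. Lgals3bp, a secreted scavenger receptor family glycoprotein, gave 385, 688 and 280 in S25 transgenic mice, against 63.4, 203 and 55.7 in S25 controls (log2 1.99, adjusted p = 0.0212), but its S46 arrays ran from 61.3 to 357 in transgenic mice, against 68.4 to 344 in controls, and the difference of 2.32 did not pass (SE 0.69, adjusted p = 0.0749). Fmod, a collagen-binding proteoglycan, rose by log2 1.88 in S25 (adjusted p = 0.00187, difference 1.64, adjusted p = 0.102), and Abcb1a, a drug efflux pump of vessels, by 1.70 (adjusted p = 0.00329, difference 1.44, adjusted p = 0.139). Abcb1a arrays overlapped, with 345, 152 and 259 in S25 transgenic mice, against 80.4, 169 and 8.50 in S25 controls. With 1 control none of the 3 passed in S25, and Abcb1a stood at 0.46 (adjusted p = 0.716).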

How the data were processed

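The deposited table of Affymetrix MG-U74Av2 arrays holds a linear intensity for every probe set on every array. MAS5 made it per the submitters' processing notes, with no version given, and all 2% trimmed means lay between 500.2 and 500.3, so the authors had scaled it. The deposited record files (unit: other, text of scanner and fluidics) served only for scan day, chip lot and station. Of 12488 probe sets 66 were controls. Gene symbols were read from GEO's platform annotation (10855 probe sets with 1 symbol, 396 with several, 1237 unlisted), and updated through RefSeq.

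With R 4.3.3 and limma 3.58.1, arrays were scaled to a common 2% trimmed mean, 18.7 (the 10th percentile) was added, log2 was taken, and probe sets at or above the 40th percentile of mean signal were tested. Folds and percentages are on that scale, which understates changes of dim genes. A single limma model held a mean for each of 14 groups over 48 arrays (34 residual, 3.73 prior degrees of freedom). P values are two-sided, Benjamini-Hochberg adjusted over the 7453 probe sets of each comparison. Replicates are separate mice, and their number limits the precision. Detection calls were not used here. The script was tested on simulated data.

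Members, the 25 gene lists and the tests were chosen with earlier results of these data known. Genes named were the up to 15 largest called rises and falls in the difference, 8 in each line's effect, 4 per list by smallest p, Htt, and any Purkinje, striatum or immediate early list member. Other names are list members given as not passed. Alternatives changed the pseudocount, filter, scaling, arrays in the fit, sex, scan day, chip lot, array weights, prior and replicate block, and left out arrays; the station covariate was chosen after seeing the data. Promoters are RefSeq's, GRCm38.p6.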

Additional observations from a re-analysis of the deposited data

Results flagged for a closer look

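The count of 151 probe sets called in the difference of effects is a test of that difference itself. Among the named genes, Gfap (log2 1.39) and Rora (-1.38) had transgenic arrays apart from controls in opposite directions in S25 and S46. The difference was called for both. Others did so too: of the 32 genes called higher, 4 had every S46 transgenic array below every S46 control, against 1.94% of all genes. Of the 80 called lower, 5 had every S46 transgenic array above every S46 control, against 1.39% of all genes. The same arrays chose these genes, so the counts only describe them.

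In 10 of 182 groups of 4 arrays checked, 1 array stood far from the rest, measured as its gap to the nearest array over the group's range, above Dixon's critical value at the 95% level. Chance flags about 1 in 20 groups. S46 transgenic array 3 was low for Trp53i13 (0.84), Hpcal1 (0.85) and the granule cell marker mean (0.84). S46 control array 4 was low for Slc1a6 (0.85), Septin4 (0.85), and the means of Bergmann glia and astrocyte (0.88), calcium signalling (0.92) and respiratory chain genes (0.89), and high for Kcnk2 (0.85). S46 control array 3 was low for Vcam1 (0.85).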

How the results depend on the processing

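Of 3303 values of named genes whose effect or difference was called, 0 changed sign under an alternative, whereas 117 of 2979 values of those not called did. Of 46 named genes called in the difference, 33 were called with each array left out and 16 under every other alternative. Fitting the 14 arrays alone gave 50 called in the difference (4 higher, 46 lower), 105 in S25 (23 higher, 82 lower), 103 between transgenic groups, 0 between controls, and 1 microglial and 1 immediate early member. With 1 S25 control the difference had 98 (60 lower), S25 131 (54 higher, 77 lower), S46 2, controls 10, immediate early genes 1, with mean shifts of log2 -0.37 for immediate early and -0.60 for calcium genes. S46 males alone gave 68 (21 higher, 47 lower), 170 higher in S25, 9 in S46, 150 between transgenic groups, 17 between controls, 1 microglial and 0 immediate early members. S46 females alone gave 10 in S46. S46 had 6 without a filter and 1 with the 60th percentile, quantile normalization, array weights or the replicate block. Controls had 9 without a filter, 1 at the 60th percentile, 13 with quantile normalization, 8 with median scaling, 12 with the station covariate (chosen after seeing the data), 3 with array weights and 2 with a trend and robust prior. Array weights gave 172 higher in S25 and 370 in S46 at 10 months. Fewer samples or genes follow from the construction of some of these; otherwise the cause was not tested.

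Replicate numbers did not pair the samples (correlations of deviations -0.01 to 0.14 in S25 and -0.07 to 0.14 in S46). With the replicate block the difference had 143 called, S25 243, transgenic groups 72 and controls 0.

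Leaving out 1 array gave 108 (without S25 transgenic 2) to 178 in the difference, 29 to 59 higher and 79 to 124 lower, 186 to 341 in S25 (61 to 148 higher, 123 to 193 lower), 0 to 5 in S46, 206 to 317 between transgenic groups, 4 to 20 between controls (20 without S46 control 2) and 74 to 87 in S46 at 10 months. Called members were 11 to 12 Purkinje (mean -1.62 to -1.45), 3 to 6 microglial (0.75 to 1.01), 2 to 4 immediate early (-0.78 to -0.56) and 4 to 5 calcium genes (-0.70 to -0.64). Groups of 3 or 4 arrays limit what can be called, and dim genes near the added 18.7 have understated folds.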

Other observations

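Genes outside the naming rule, chosen after their values were seen, added other neuronal roles to the 80 lower genes. Crhr1, a receptor of corticotropin-releasing hormone, differed by log2 -1.66, Nptx1, a synaptic pentraxin, by -1.53, Sema7a, a semaphorin, by -1.38, and Kitl, the ligand of Kit, by -1.13. Among the 32 higher genes were Uchl1, a neuronal ubiquitin hydrolase (0.91), Mapt, which encodes tau (0.79), and Ctsd, a lysosomal protease (0.70). With 1 S25 control these 3 did not pass, at 0.82 for Uchl1, 0.64 for Mapt and 0.53 for Ctsd, while the 4 lower genes did.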
